A study of Mus musculus with 8 samples.

Results

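Organoids formed by mouse liver ductal cells after 6 days of culture were compared with the same kind of cells after 12 h of culture, across all genes. The comparison uses the 4 libraries whose titles name these conditions, 2 of organoids and 2 of 12 h cultures, out of 8 in the study. The cells of all 8 libraries came from C57/B6 mice, adult males with healthy livers, and had been sorted by flow cytometry for EpCAM, an adhesion protein on the surface of bile duct epithelium. Both groups compared were grown in Matrigel, a basement membrane gel, with organoid medium, so that the stated difference between them is the time in culture. Freshly sorted cells gave 2 further libraries, 24 h of culture gave 1, and 1 more has 48 h in its title but 24 h in its other labels. The 4 libraries of the other groups serve here for the error of the fit, in the case of the fresh pair, and as reference levels. Total RNA, extracted with a micro column kit, was turned into cDNA by Smart-seq2, a full-length method for very small inputs, and tagmented with Nextera XT. The labels do not say whether the 2 libraries of a group came from separate mice or cultures, so the p-values reflect no more than how these libraries differ within a group, possibly for technical reasons alone.

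Ductal epithelial cells, or cholangiocytes, line the bile ducts and rarely divide in a healthy liver, but after injury they can re-enter the cell cycle and repopulate the epithelium. In organoid culture, with growth factors that engage Wnt, epidermal growth factor and related receptors, they form hollow epithelial spheres that can be propagated. Entry into division proceeds through G1, DNA replication in S phase, and G2 and mitosis, and many genes of G2 and mitosis are transcribed together, from promoters that carry CCAAT boxes and a cell cycle homology region (CHR).

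Expression was in RPKM, read counts divided by the length of the gene and the depth of the library, and reflected 20947137 and 21732042 effective reads in the 12 h libraries and 13833143 and 20218320 in organoid libraries 1 and 2. For a 2 kb gene the level of 3 reads was 0.0690 to 0.108 RPKM in these 4 libraries, a limit that covers counting error only. The 12 h libraries had fewer genes above 0, 15632 and 16157, than the organoid libraries, 18496 and 19061, while genes at 1 RPKM or more were closer, 10605 and 10661 against 10877 and 11098. Organoid library 1 stood apart. Its RPKM summed to 446034, against 357129 to 369701 in the other 7, and ribosomal protein genes made up 6.33% of that sum, against 1.19% to 2.52%. Mitochondrial genes took 8.83% and 8.68% of the sum at 12 h and 3.92% and 4.93% in organoids. The median difference between the libraries of a pair, over genes tested, was 0.64 on the log2(RPKM + 1) scale in organoids, 0.53 at 12 h and 0.26 in fresh cells. In bulk libraries such as these, fewer cells of a type and less RNA per cell cannot be told apart.

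Markers of ductal identity were present in both groups. Of 29 ductal identity genes, 28 passed the filter on low values, and their summed level was 17373 and 21306 RPKM at 12 h and 24373 and 18321 RPKM in organoids. Epcam was at 862 and 1175 RPKM at 12 h and at 900.2 and 954 RPKM in organoids, levels that overlapped. Spp1, the secreted phosphoprotein osteopontin, was at 6648 and 11708 RPKM and at 10088 and 5841 RPKM, and likewise overlapped. Sox9, a transcription factor of biliary cells, was at 188 and 302 RPKM at 12 h and 119.8 and 139.7 RPKM in organoids, with a fitted log2 difference of −0.88 (SE 0.37, adjusted p = 0.263 in limma).

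Of 12900 genes tested with limma and Benjamini-Hochberg adjustment at a threshold of 0.05, 258 changed between 12 h and organoids, 178 (1.38%) upward and 80 (0.620%) downward, and 221 of them were protein-coding. Fitted changes, which are differences of mean log2(RPKM + 1) throughout, were at least 1.5 in size in these genes, with a median of 3.07 among those higher and −2.82 among those lower. The levels of all 258 did not overlap between the groups, but neither did those of 44.9% of all genes tested, of which 20.8% lay higher and 24.1% lower in organoids. The filter asked for 1 RPKM in at least 2 of the 8 libraries. Of the 178 genes that rose, 85 passed it only through the organoid libraries, and of the 80 that fell, 22 passed it only through the 12 h libraries, so that these had to differ. The median fitted change of all genes was −0.09, and centring each library on its median moved it by 0.19 to 0.10, with 261 genes then higher and 75 lower.

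Every call below leans on error pooled over the 3 groups with 2 libraries. When organoid library 1, either 12 h library or either fresh library was left out, or only the 4 libraries compared were fitted, limma called 0 genes, with 1679 to 2777 at an unadjusted p under 0.05 against 2469 (19.1%) in the full fit, 9.80% higher and 9.34% lower. Without organoid library 2 it called 202 genes higher and 119 lower, of which 91 and 32 were among the 178 and 80. Library weights left 20 higher and 8 lower. Counts of list members below are to be set beside the shares of all genes tested in the full fit. These were 1.38% called higher and 0.620% called lower, and 9.80% higher and 9.34% lower at an unadjusted p under 0.05.

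**Figure D1:**
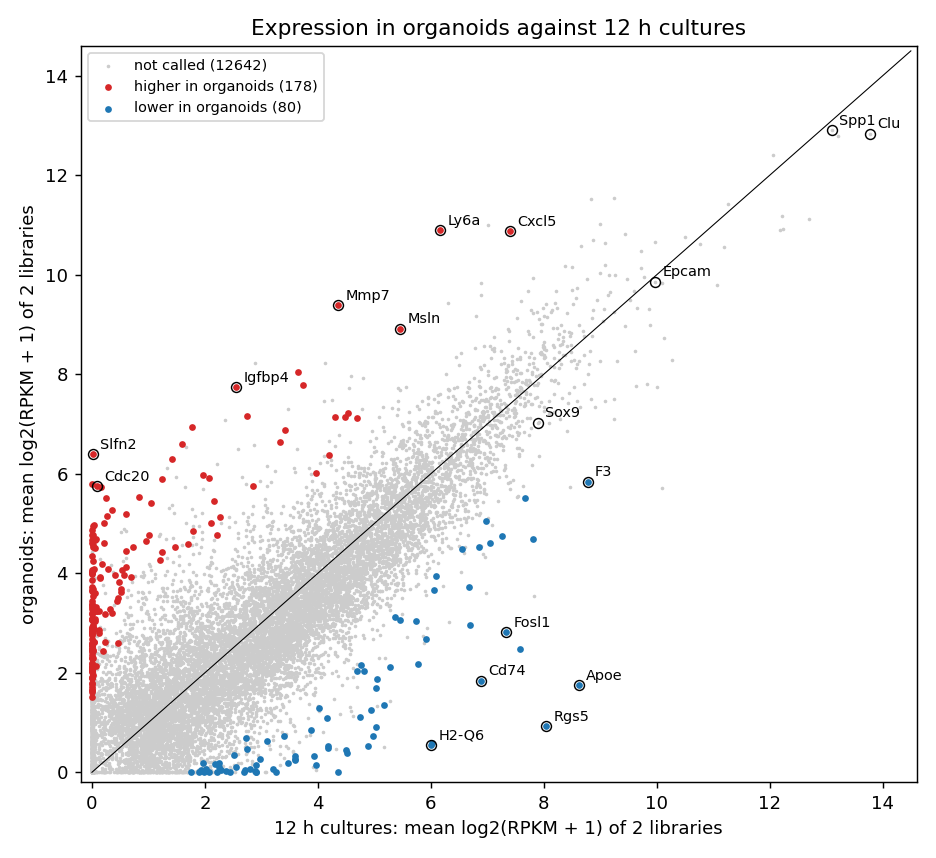
Mean log2(RPKM + 1) of the 2 organoid libraries (y axis) against the mean of the 2 libraries at 12 h (x axis), 1 point for each of the 12900 genes tested, with genes called higher in red, lower in blue and the diagonal of equal levels as a line. The abundant ductal genes Spp1 and Epcam lie near the diagonal, Ly6a and Mmp7 lie far above it, and Rgs5 and Apoe lie far below it.

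Genes of G2 and mitosis made up the group with the most increases. Of 42 such genes, all of which passed the filter, 26 rose, 0 fell, and 39 were higher in both organoid libraries than in both libraries at 12 h. Among all genes tested the corresponding shares were 1.38% higher by limma and 20.8% higher without overlap. The median fitted change over the list was 3.03, against −0.09 over all genes. At 12 h the list's median level was 0.0316 and 0.105 RPKM, in organoids 8.62 and 18.1 RPKM, so that organoid library 2 was the higher, as it was for all but 3 of the 42 genes. Since 18 of the 42 passed the filter only through the organoid libraries, the count is a description and not an independent measure. Without organoid library 1 the median was 3.51 and without organoid library 2 it was 2.59.

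The promoters of 5 of the genes that rose are printed here. They have the largest fitted changes among called members of the group whose promoter window held both TTTGAA and CCAAT. All 5 thus carry both elements by choice. Of the 23 called members with a promoter in the RefSeq table, 8 (34.8%) held both. Each is the 250 bases before the transcription start, 5′ to 3′ on the gene's strand, from RefSeq on GRCm38.p6, with capitals marking every TTTGAA or TTCGAA (CHR type) and every CCAAT, on either strand, so that TTCAAA and ATTGG are capitals too. Cdc20 (chr4:118437344-118437593, minus strand) activates the anaphase-promoting complex, Ube2c (chr2:164769679-164769928, plus strand) is the ubiquitin-conjugating enzyme of that complex, Ccnb2 (chr9:70421555-70421804, minus strand) is cyclin B2, Top2a (chr11:99024190-99024439, minus strand) is the topoisomerase that untangles replicated DNA, and Cdk1 (chr10:69352913-69353162, minus strand) is the kinase that drives mitosis.
Cdc20: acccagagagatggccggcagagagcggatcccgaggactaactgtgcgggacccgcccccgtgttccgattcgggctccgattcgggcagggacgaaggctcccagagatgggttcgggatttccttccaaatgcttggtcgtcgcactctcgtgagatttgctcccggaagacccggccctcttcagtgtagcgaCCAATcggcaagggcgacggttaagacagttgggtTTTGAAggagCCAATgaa
Ube2c: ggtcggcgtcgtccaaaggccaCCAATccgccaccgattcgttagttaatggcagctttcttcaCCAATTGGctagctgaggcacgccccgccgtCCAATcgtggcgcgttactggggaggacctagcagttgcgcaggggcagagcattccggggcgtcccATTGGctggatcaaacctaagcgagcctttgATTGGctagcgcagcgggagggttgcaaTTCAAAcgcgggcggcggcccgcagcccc
Ccnb2: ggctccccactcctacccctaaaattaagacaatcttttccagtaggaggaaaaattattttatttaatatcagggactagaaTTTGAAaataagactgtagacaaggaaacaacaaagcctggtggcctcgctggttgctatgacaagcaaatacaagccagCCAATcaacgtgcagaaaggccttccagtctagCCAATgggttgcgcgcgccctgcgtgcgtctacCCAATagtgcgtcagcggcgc
Top2a: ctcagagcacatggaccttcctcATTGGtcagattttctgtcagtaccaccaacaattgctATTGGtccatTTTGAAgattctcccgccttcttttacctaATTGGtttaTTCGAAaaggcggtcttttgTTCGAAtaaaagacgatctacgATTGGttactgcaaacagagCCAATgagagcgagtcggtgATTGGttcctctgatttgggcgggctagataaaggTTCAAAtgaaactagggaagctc
Cdk1: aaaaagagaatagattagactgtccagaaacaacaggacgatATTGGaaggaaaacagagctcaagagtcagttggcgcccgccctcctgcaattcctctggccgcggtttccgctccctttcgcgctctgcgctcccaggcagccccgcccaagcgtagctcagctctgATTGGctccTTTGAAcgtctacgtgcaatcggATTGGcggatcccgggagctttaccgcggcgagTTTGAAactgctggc

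In these windows the nearest TTTGAA lay 18 bases before the start in Cdc20, 29 in Ube2c, 23 in Top2a and 15 in Cdk1, but 167 in Ccnb2. CCAAT occurred 2 times in Cdc20, 3 times in Ccnb2 and in Cdk1, and 6 times in Ube2c and in Top2a, where the count for Ube2c takes both strands of 1 run in which matches overlap. Promoters of 35 of the 42 G2 and M phase genes were in the RefSeq table. Both TTTGAA and CCAAT were present in 11 of the 35 (31.4%), against 5.72% of all 27025 promoters and 4.07% of the 9369 promoters of genes tested. With or without the other string, CCAAT was in 77.1% of the 35, against 34.4% of all promoters, and TTTGAA in 34.3%, against 16.3%. When the 50 bases after the start were added, 23 of the 35 (65.7%) held both, against 7.11% of all promoters, a window added after the first had been counted. Of the promoters of the other 98 matched genes that rose, 9.18% held both in the shorter window. These matches of short strings are a description and do not show that a factor was bound.

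Cdc20, Ube2c, Aurka, Plk1 and Birc5 were at 0.212 RPKM or less in each 12 h library. Cdc20 (4:118432901-118437352) was at 0 and 0.123 RPKM at 12 h and at 28.8 and 96.7 RPKM in organoids, with a fitted change of 5.67 (SE 0.63, adjusted p = 0.0211). Ube2c was at 0.0367 and 0.212 RPKM at 12 h and at 35.1 and 76.6 RPKM in organoids (fitted change 5.56, SE 0.52, adjusted p = 0.0183). Both organoid libraries lay far above both at 12 h for each gene, with library 2 the higher. Aurka, the kinase of spindle poles, was at 0.0189 and 0 RPKM and at 20.3 and 44.5 RPKM (4.94, SE 0.52, adjusted p = 0.0189). Plk1, another mitotic kinase, was at 0.0217 and 0.0209 RPKM and at 15.4 and 59.0 RPKM (4.94, SE 0.66, adjusted p = 0.0294). Birc5, or survivin, a member of the chromosomal passenger complex and also counted among YAP targets, was at 0.0281 and 0 RPKM and at 23.3 and 29.5 RPKM (4.75, SE 0.42, adjusted p = 0.0183). The 12 h values of Aurka and Birc5 stand for so few reads that no fold is given.

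The cyclins Ccna2, Ccnb1 and Ccnb2 and the kinase Cdk1 rose as well, while Ccnf, cyclin F, did not pass (1.28, SE 0.61, adjusted p = 0.315). Ccnb2 was at 0.682 and 5.85 RPKM at 12 h and at 109 and 137 RPKM in organoids, 37.6-fold higher by the means (fitted change 5.18, SE 0.80, adjusted p = 0.0371). Ccna2, cyclin A2, was at 0.0351 and 1.23 RPKM and at 27.7 and 45.2 RPKM (4.58, SE 0.55, adjusted p = 0.0253). Ccnb1, cyclin B1, was listed at 0 in both 12 h libraries and was at 8.66 and 15.5 RPKM in organoids, at least 724-fold higher against a floor of 3 reads over both 12 h libraries. Cdk1 was at 4.12 and 2.47 RPKM and at 48.2 and 73.1 RPKM, 18.4-fold higher (3.84, SE 0.42, adjusted p = 0.0211). Cdk1 and Ccnb2 were thus well above the list's median level at 12 h. Mki67, the antigen used as a proliferation marker, was at 0 and 0.201 RPKM and at 5.76 and 6.26 RPKM (2.68, SE 0.39, adjusted p = 0.0335), and the organoid libraries differed little. Cdkn3, a phosphatase acting on cyclin-dependent kinases that stands in none of the lists, was listed at 0 in both 12 h libraries and was at 66.0 and 45.4 RPKM in organoids, at least 1879-fold higher, with the second largest fitted increase of the genes named, 5.80 (SE 0.50, adjusted p = 0.0183).

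Not every G2 and M phase gene did this. Pttg1, securin, was at 28.8 and 41.9 RPKM at 12 h and at 16.4 and 23.0 RPKM in organoids, the only member lower in both organoid libraries (−0.81, SE 0.38, adjusted p = 0.305). Bub3, a checkpoint protein, was at 39.7 and 40.3 RPKM and at 27.7 and 42.9 RPKM, and Kif23, a kinesin of the central spindle, at 18.1 and 3.16 RPKM and at 16.4 and 44.0 RPKM, and both overlapped. Foxm1, a transcription factor of this gene group, was at 0 and 0.0320 RPKM and at 2.50 and 9.67 RPKM, a fitted difference of 2.59 that missed the threshold (SE 0.58, adjusted p = 0.0781). In the libraries outside the comparison the list's median was 0.196 and 0.515 RPKM in fresh cells, 0.0268 RPKM at 24 h and 26.4 RPKM in the library titled 48h, above both organoid libraries. These last 2 had no replicate.

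**Figure D2:**
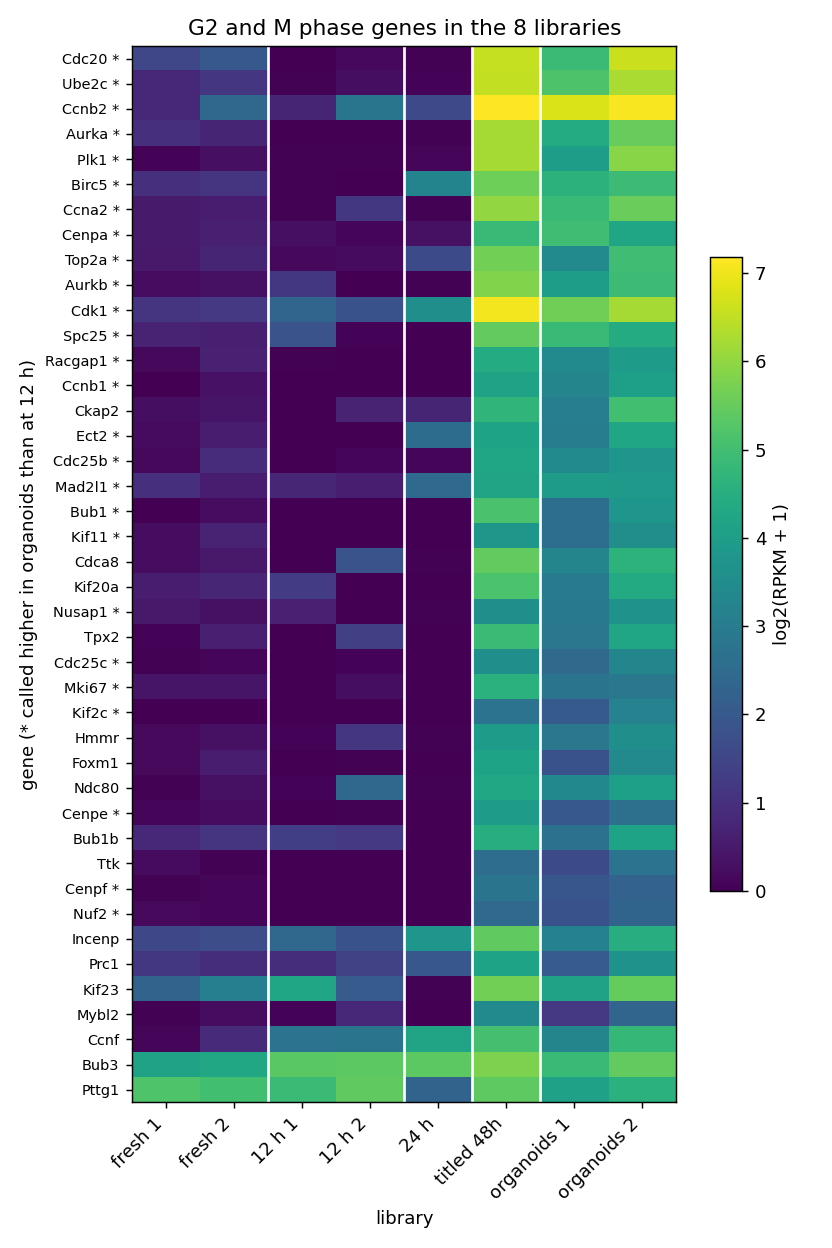
Colour gives log2(RPKM + 1) of the 42 G2 and M phase genes (rows, ordered by fitted change, a star marking the 26 called higher) in the 8 libraries (columns, with white lines between groups). The organoid libraries and the library titled 48h are bright in most rows and the 12 h, 24 h and fresh libraries dark, while Bub3 and Pttg1 in the bottom rows are bright in nearly all.

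Genes of DNA replication had fewer calls. Of 43 S phase genes 42 were tested, 2 rose and 0 fell, with a median fitted change of 1.36, and 24 were higher in organoids without overlap, against 1.38% called higher and 20.8% higher without overlap among all genes tested. Rrm2, a subunit of ribonucleotide reductase, was at 0.0172 and 2.16 RPKM at 12 h and at 37.9 and 54.8 RPKM in organoids, 42.6-fold higher (4.70, SE 0.62, adjusted p = 0.0292). Tk1, thymidine kinase, was at 0.00918 and 0.381 RPKM and at 5.48 and 11.5 RPKM (2.93, SE 0.49, adjusted p = 0.0413). These 2 enzymes supply deoxynucleotides. Mcm6, a subunit of the replicative helicase, was at 28.2 and 57.1 RPKM at 12 h and at 24.4 and 64.7 RPKM in organoids, with a fitted difference of −0.01, and Pcna, the sliding clamp, was at 19.7 and 16.2 RPKM and at 13.6 and 28.4 RPKM. Both overlapped, and both were well above background at 12 h already. Gmnn, geminin, an inhibitor of replication licensing, was at 10.2 and 2.58 RPKM and at 80.0 and 45.6 RPKM (3.28, SE 0.64, adjusted p = 0.0592). E2F-type strings (TTTCGCGC, TTTGGCGC or TTTCCCGC, either strand) were in 22.2% of the 36 S phase promoters matched, in 2.86% of the G2 and M phase promoters and in 1.59% of all promoters. The median S phase change was 1.78 without organoid library 1 and 0.77 without organoid library 2.

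None of 20 cyclins, kinases and inhibitors of G1 passed the test, with 7 higher and 1 lower at an unadjusted p under 0.05. Among all genes tested 9.80% were higher and 9.34% lower at that threshold. The list's median was 0.91. Ccnd1, cyclin D1, was at 47.0 and 42.2 RPKM at 12 h and at 76.9 and 199.7 RPKM in organoids (1.46, SE 0.48, adjusted p = 0.17). Cdk4, its partner kinase, was at 175 and 188 RPKM and at 194 and 280.0 RPKM. Cdkn1a, the p21 inhibitor, was at 118 and 172 RPKM and at 166 and 161 RPKM, which overlapped.

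Of 20 genes of fetal and regenerating epithelium, all tested, 4 rose, among them Ly6a, Msln and Ereg, and 0 fell. Among all genes tested 1.38% were called higher and 0.620% lower. The list's median was 1.15, and close to the same in both organoid libraries taken alone, 1.32 and 1.36. Ly6a (15:74994877-74998031), the GPI-anchored antigen Sca-1, was at 101 and 49.6 RPKM at 12 h and at 3259 and 1106 RPKM in organoids, 29.0-fold higher by the means (4.73, SE 0.65, adjusted p = 0.0299). The organoid values lay far apart, both above the 12 h cultures, and fresh cells, at 101 and 51.4 RPKM, were close to 12 h. Ly6a has close relatives in its gene family, so the assignment of its reads is uncertain. Msln, mesothelin, a surface glycoprotein, was at 37.9 and 48.5 RPKM and at 488 and 475 RPKM, 11.1-fold higher (3.46, SE 0.33, adjusted p = 0.0183). Ereg, epiregulin, a ligand of the epidermal growth factor receptor, was listed at 0 in both 12 h libraries and was at 2.08 and 2.90 RPKM in organoids (1.79, SE 0.29, adjusted p = 0.0395), at least 146-fold higher. Ereg passed the filter only through the organoid libraries, so that it had to differ. S100a6, a calcium-binding protein, was at 694 and 375 RPKM and at 2747 and 1581 RPKM without passing (2.03, SE 0.62, adjusted p = 0.15). Clu, clusterin, among the most abundant transcripts of all, was at 13943 and 14207 RPKM at 12 h and at 5191 and 10285 RPKM in organoids (−0.95, SE 0.58, adjusted p = 0.421), and Spp1 overlapped, as given above.

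In the ductal identity list, 2 of 28 rose, among them Mmp7, and 0 fell, against 1.38% and 0.620% of all genes tested. The list's median was 0.12. Mmp7 (9:7692090-7699585), the matrix metalloproteinase matrilysin, was at 23.8 and 15.9 RPKM at 12 h and at 631 and 709.8 RPKM in organoids, 33.8-fold higher (5.03, SE 0.58, adjusted p = 0.0224). Both organoid libraries also lay above the fresh pair, at 145 and 43.3 RPKM. Krt7, a keratin of ductal cells, was at 145 and 83.3 RPKM and at 809.8 and 409 RPKM (2.38, SE 0.50, adjusted p = 0.0694), and Krt19, the other ductal keratin, at 1128 and 257 RPKM and at 1919.8 and 1326 RPKM (1.56, SE 0.71, adjusted p = 0.295). Neither passed, although both were higher in both organoid libraries. Prom1, or CD133, was at 35.3 and 31.0 RPKM and at 179.7 and 109 RPKM (2.05, SE 0.39, adjusted p = 0.0581). Of 26 ductal transport and cilium genes tested 0 passed, with 2 higher and 3 lower at an unadjusted p under 0.05. The shares of all genes tested at that threshold were 9.80% and 9.34%.

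The largest fitted increase among the genes named was that of Slfn2 (11:83065112-83070678), a schlafen family member, at 0 and 0.0277 RPKM at 12 h and at 146 and 47.4 RPKM in organoids (6.38, SE 0.64, adjusted p = 0.0183). It was at 5.02 RPKM in the library titled 48h, and lower in the other libraries, so that only the organoid libraries were high. Igfbp4, a binding protein for insulin-like growth factors, was at 6.54 and 3.59 RPKM and at 154 and 295 RPKM, 44.3-fold higher (5.18, SE 0.46, adjusted p = 0.0183), while fresh cells had 5.24 and 5.77 RPKM. Wincr1, a long noncoding RNA, was at 0 and 0.423 RPKM and at 42.4 and 47.1 RPKM, 211-fold higher (5.26, SE 0.41, adjusted p = 0.0177), and was at 50.1 RPKM in the 24 h library. Lbp, which binds bacterial lipopolysaccharide, was at 0.583 and 0.0286 RPKM and at 27.9 and 51.1 RPKM (4.93, SE 0.55, adjusted p = 0.0211). Glipr1, of the CAP protein family, was at 0.0619 and 7.69 RPKM and at 94.9 and 96.5 RPKM (4.99, SE 0.89, adjusted p = 0.0495), and in fresh cells at 54.3 and 58.2 RPKM, between the 2 groups. Glipr1 and Lbp were thus also above the 12 h level in fresh cells, unlike Igfbp4.

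The Wnt and Notch lists gave 1 call each, while 1.38% of all genes tested were called higher and 0.620% lower. Of 35 Wnt receptors, targets and organoid stem markers, 28 were tested, 1 rose and 0 fell, with a median of 0.21 that was 0.62 without organoid library 1 and −0.36 without organoid library 2. Sp5, a transcription factor induced by Wnt signalling, was at 0 and 1.12 RPKM at 12 h and at 11.4 and 21.4 RPKM in organoids, 29.3-fold higher (3.52, SE 0.55, adjusted p = 0.0388). Lgr5, the R-spondin receptor that marks stem cells in several epithelia, was at 0 and 0.224 RPKM at 12 h and at 72.0 RPKM in organoid library 1 and 4.21 RPKM in organoid library 2. Both organoid libraries were above both 12 h libraries, but the gap between them left the fitted difference of 4.14 with an SE of 1.11 and an adjusted p of 0.113. Axin2, a negative regulator and target of the pathway, was at 1.21 and 1.14 RPKM and at 1.30 and 8.88 RPKM (1.13, SE 0.69, adjusted p = 0.423). Of 19 Notch pathway genes 12 were tested and 1 rose, and 3 of the 12 passed the filter only through the organoid libraries. Jag2, a Notch ligand, was listed at 0 in both 12 h libraries and was at 3.53 and 3.0 RPKM in organoids (2.09, SE 0.31, adjusted p = 0.0346), at least 324-fold higher. Jag2 was among those 3, so that it had to differ. Jag1, another ligand, was at 19.1 and 11.5 RPKM and at 1.69 and 17.0 RPKM, and Hes1, a target, at 111 and 125 RPKM and at 138 and 109 RPKM, and both overlapped. Of 24 BMP and TGF-beta response genes 1 fell, Id4, an inhibitor of helix-loop-helix factors, at 4.86 and 4.80 RPKM at 12 h and at 0 and 0.149 RPKM in organoids (−2.44, SE 0.32, adjusted p = 0.0292), and the list's median was −0.53. Id4 passed the filter only through the 12 h libraries, so that it too had to differ.

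Among 27 gastrointestinal epithelial genes tested 2 rose and 0 fell, against 1.38% and 0.620% of all genes tested, and the median was 0.70. The fitted change was above 0 in 14, with 12 over 1, and below it in 13, with 8 under −1. Both organoid libraries lay above both 12 h libraries in 10 genes and below them in 2, against 20.8% and 24.1% of all genes tested. Cdh17, the liver-intestine cadherin, was at 2.29 and 3.63 RPKM at 12 h and at 29.7 and 129 RPKM in organoids, 26.9-fold higher (4.02, SE 0.69, adjusted p = 0.0449), and in fresh cells at 0.161 and 0.0628 RPKM. Cdx2, a transcription factor of intestinal epithelium, was listed at 0 in all 6 libraries other than the organoids, where it was at 3.26 and 2.23 RPKM (1.89, SE 0.30, adjusted p = 0.0388), at least 88.3-fold higher. Cdx2 thus passed the filter only through the organoid libraries and had to differ. Gpx2, a glutathione peroxidase of gut epithelium, was at 74.6 and 186 RPKM and at 1349 and 613 RPKM (2.93, SE 0.62, adjusted p = 0.0678), and Tspan8, a tetraspanin, overlapped, at 247 and 253 RPKM and at 1088 and 240.3 RPKM. Anxa10 and Tff1, stomach genes of the list chosen after their values were seen, had lower means in organoids without passing. Anxa10, an annexin, was at 32.9 and 6.29 RPKM at 12 h and at 0 and 0.0554 RPKM in organoids (−3.94, SE 0.84, adjusted p = 0.0704). Tff1, a trefoil factor of stomach mucus, was at 1.598 and 112.2 RPKM and at 0.151 and 1.66 RPKM (−3.29, SE 1.94, adjusted p = 0.408), which overlapped, and the 12 h libraries lay far apart.

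In lipid synthesis 3 of 31 genes tested rose and 0 fell, with a median of 0.53 and 17 higher in organoids without overlap, against the same 1.38% and 20.8% of all genes tested. The 2 named here are desaturases that make monounsaturated fatty acids. Scd2 was at 23.5 and 26.5 RPKM at 12 h and at 144 and 134 RPKM in organoids, 5.57-fold higher (2.43, SE 0.32, adjusted p = 0.0292). Scd1 was at 0.148 and 0.0476 RPKM and at 12.1 and 5.83 RPKM (3.11, SE 0.53, adjusted p = 0.0436). Enzymes of sterol synthesis gave smaller differences, such as Hmgcs1 at 39.2 and 42.2 RPKM and at 67.0 and 118 RPKM (1.11, SE 0.42, adjusted p = 0.222).

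Glycolysis separated the organoid libraries from each other. Of 35 glycolysis and hypoxia response genes tested 0 passed, with 10 higher and 0 lower at an unadjusted p under 0.05 and a median of 1.67. At that threshold 9.80% of all genes tested were higher and 9.34% lower. Organoid library 1 lay above the mean of the 12 h cultures by a median of 2.82 and organoid library 2 by 0.38, and 32 of the 35 genes were higher in library 1. The list's median change was thus 2.82 without organoid library 2 and 0.38 without organoid library 1. Aldoa, an aldolase, was at 145 and 187 RPKM at 12 h, at 2182 RPKM in organoid library 1 and at 104 RPKM in organoid library 2. Ldha, lactate dehydrogenase, was at 203 and 182 RPKM, then 1992 and 256 RPKM, and Pkm, pyruvate kinase, at 143 and 95.9 RPKM, then 1513 and 398 RPKM (2.72, SE 0.63, adjusted p = 0.082). Aldoa thus lay above both 12 h libraries in organoid library 1 and below both in organoid library 2. Ldha and Pkm lay above both 12 h libraries in each organoid library. The same library carried the raised share of ribosomal protein genes given above, and its part in the result was not tested.

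Other housekeeping groups also differed between the organoid libraries. In the MYC and ribosome biogenesis list of 36 genes 0 passed, with 2 higher and 9 lower at an unadjusted p under 0.05. At that threshold 9.80% of all genes tested were higher and 9.34% lower. The list's median was −0.98, which was −0.30 without organoid library 1 and −1.67 without organoid library 2. Srm, spermidine synthase, was at 115 and 185 RPKM at 12 h, 19.6 RPKM in organoid library 1 and 92.9 RPKM in organoid library 2. Npm1, nucleophosmin, was higher in both organoid libraries, at 69.8 and 101 RPKM and at 241 and 184 RPKM (1.32, SE 0.36, adjusted p = 0.116). Of 40 oxidative phosphorylation subunits 0 passed, with 2 higher and 0 lower at an unadjusted p under 0.05 and a median of 0.42, and Cox4i1, a subunit of cytochrome oxidase, was at 319.5 and 407 RPKM, then 2494 and 520.3 RPKM. Of 20 heat shock chaperones 0 passed, with 0 higher and 4 lower at an unadjusted p under 0.05, and the median was 0.05 without organoid library 1 and −0.96 without organoid library 2.

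**Figure D3:**
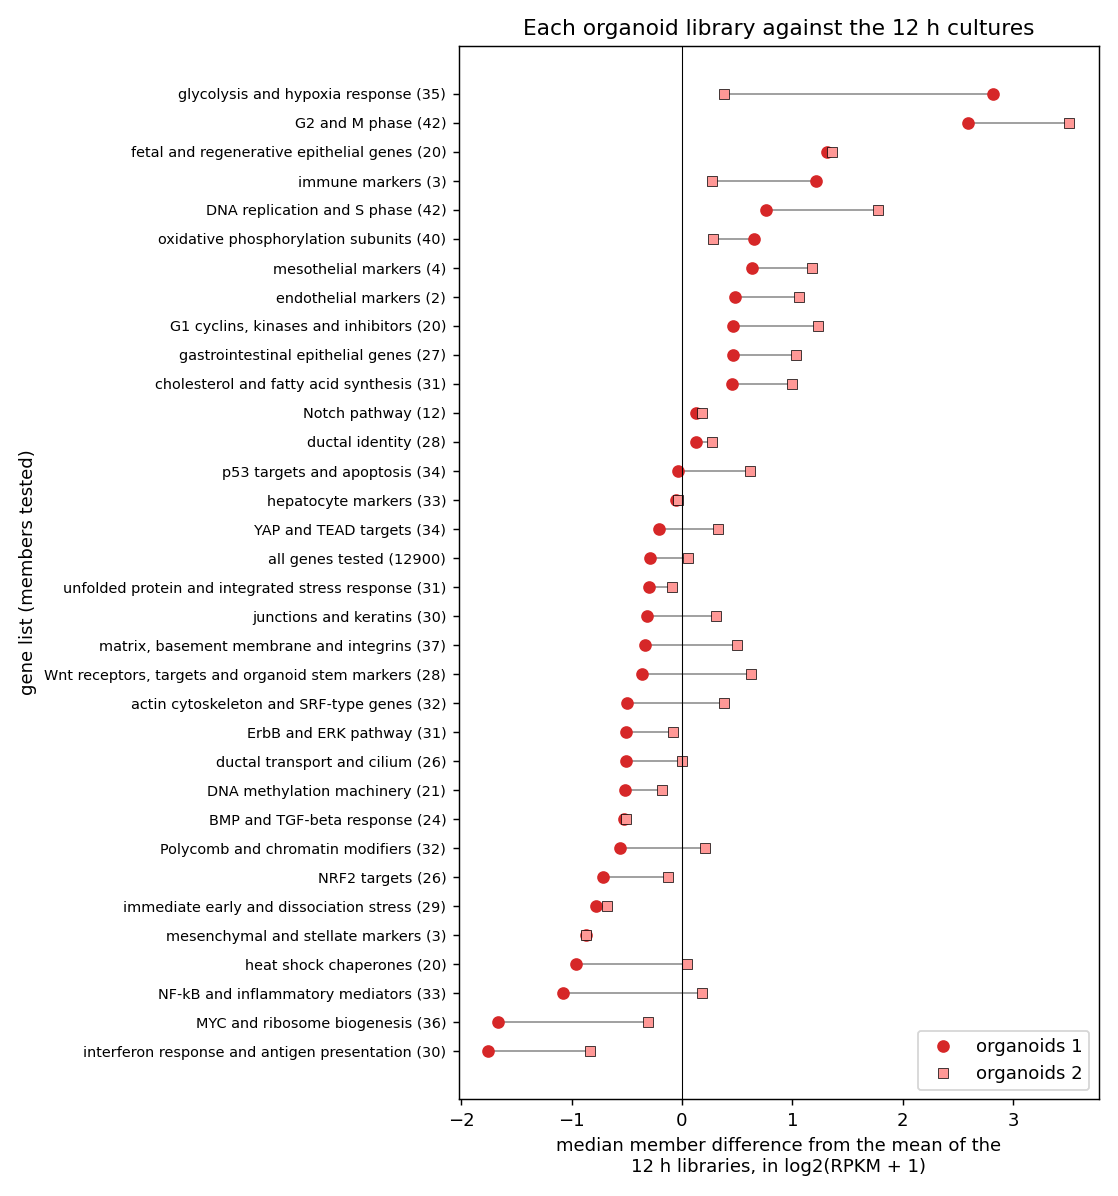
For each gene list (rows, members tested in brackets) the x axis gives the median over members of log2(RPKM + 1) in organoid library 1 (circles) or organoid library 2 (squares) minus the mean of the 12 h libraries. Glycolysis and hypoxia genes show the widest gap, 2.82 against 0.38, while the fetal and regenerative genes lie together at 1.32 and 1.36.

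Of the 80 genes that fell, 12 were members of a list. The largest decrease was that of Rgs5 (1:169655501-169695813), a regulator of G protein signalling known as a pericyte marker, at 179 and 389 RPKM at 12 h and at 0.254 and 1.88 RPKM in organoids, 266-fold lower (−7.12, SE 0.54, adjusted p = 0.0177). Rgs5 is the only called member of the mesenchymal and stellate marker list, of which 2 further members were tested. Dcn, decorin, was at 2.27 and 0.0221 RPKM at 12 h and listed at 0 in both organoid libraries (−0.87, SE 0.67, adjusted p = 0.517), and was thus well above background in 1 of the 12 h libraries. Acta2, smooth muscle actin, was at a few reads in each library, at 0.0536 and 0.0775 RPKM and at 0.162 and 0.0555 RPKM. Of the 16 members, 13 and 12 were at 0 in the 12 h libraries and 11 in each organoid library.

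Hepatocyte markers gave 1 call. Of 40 hepatocyte markers 33 were tested and Apoe fell, and the median, −0.03, became positive after centring, at 0.16. Apoe (7:19696109-19699188), an apolipoprotein, was at 392 and 394 RPKM at 12 h and at 0.744 and 5.53 RPKM in organoids, 125-fold lower (−6.87, SE 0.61, adjusted p = 0.0183). It was higher still in fresh cells, at 1960.1 and 2515 RPKM. Alb, albumin, was at 23.0 and 24.5 RPKM and at 0.0309 and 3.72 RPKM (−3.49, SE 0.69, adjusted p = 0.0603). Ambp, a plasma protein precursor, was at 254 and 199.9 RPKM, then 1.08 and 64.1 RPKM, and Gc, the vitamin D binding protein, at 29.4 and 78.2 RPKM, then 15.2 and 523 RPKM, an overlap with a wide gap between the organoid libraries. Outside the list, Apcs, the serum amyloid P component, fell from 35.2 and 26.4 RPKM to 0.968 and 0.407 RPKM (−4.24, SE 0.41, adjusted p = 0.0183), and Ces1d, a carboxylesterase, fell from 26.1 and 18.2 RPKM to 0 and 0.689 RPKM (−4.13, SE 0.45, adjusted p = 0.0211). Ces1d belongs to a cluster of near-identical genes, and its share of reads is uncertain. The summed level of the 40 markers was 893 and 907 RPKM at 12 h and 383 and 762 RPKM in organoids. Apoe and Ambp made up most of it at 12 h, and Gc made up most of it in organoid library 2. The part of remaining hepatocytes in these values was not tested.

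Growth factor and AP-1 genes were among those that fell. Of 31 ErbB and ERK pathway genes tested, 3 fell and 1, Ereg, rose, against 0.620% called lower and 1.38% called higher among all genes tested. Ereg passed the filter only through the organoid libraries. At an unadjusted p under 0.05 in limma 10 of the 31 were lower and 3 higher, against 9.34% and 9.80% of all genes tested. Fosl1, an AP-1 factor induced by ERK, was at 153 and 169.9 RPKM at 12 h and at 2.16 and 14.7 RPKM in organoids, 19.1-fold lower (−4.52, SE 0.71, adjusted p = 0.0388). Hbegf, a ligand of the epidermal growth factor receptor, was at 188 and 217 RPKM and at 39.8 and 50.5 RPKM, 4.49-fold lower (−2.15, SE 0.34, adjusted p = 0.0391). Fgfr1, a fibroblast growth factor receptor, was at 23.3 and 12.7 RPKM and at 0.0267 and 0.926 RPKM (−3.70, SE 0.53, adjusted p = 0.0335). The ligands Hbegf and Ereg therefore went in opposite directions, at very different levels. Nrn1, neuritin, fell from 52.9 and 77.3 RPKM to 0.0409 and 1.18 RPKM, 107-fold (−5.43, SE 0.52, adjusted p = 0.0183). In fresh cells Nrn1 was at 15.1 and 26.3 RPKM, below its 12 h level.

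Of 29 immediate early and dissociation stress genes 2 fell, Fosl1 and Klf6, 0 rose, and the median was −0.70. Among all genes tested 0.620% were called lower and 1.38% higher. The fitted change was below 0 in 24 of the 29 and above 0 in 5. Ier3 was among those 5 and overlapped, at 813 and 878 RPKM at 12 h and at 1679 and 750 RPKM in organoids (0.41, SE 0.48, adjusted p = 0.672). Klf6, a zinc finger factor, was at 74.1 and 116 RPKM at 12 h and at 21.1 and 21.6 RPKM in organoids, 4.44-fold lower (−2.07, SE 0.36, adjusted p = 0.0455). Egr1 was at 85.8 and 182 RPKM and at 5.85 and 20.3 RPKM (−3.38, SE 0.62, adjusted p = 0.0536), and Junb at 411 and 469.7 RPKM and at 256 and 258 RPKM (−0.77, SE 0.33, adjusted p = 0.274). Of 34 YAP and TEAD targets 1 rose, Birc5, and 1 fell, F3, the tissue factor that starts coagulation, at 306 and 627 RPKM at 12 h and at 53.2 and 59.4 RPKM in organoids, 8.29-fold lower (−2.94, SE 0.42, adjusted p = 0.0333). Ankrd1, a target often used as a readout of YAP, overlapped, at 168 and 250.4 RPKM and at 152 and 344 RPKM.

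Genes of antigen presentation and the interferon response had the lowest median of the 33 lists. Of 32 genes 30 were tested, 2 fell and 0 rose, 14 were lower and 0 higher at an unadjusted p under 0.05, and the median was −1.14, from −0.84 without organoid library 1 to −1.76 without organoid library 2. Of the 30, 20 were below both 12 h libraries in both organoid libraries, against 24.1% of all genes tested. The fitted change was below 0 in 25 and above 0 in 5. B2m, beta-2 microglobulin, overlapped, at 398 and 506 RPKM at 12 h and at 240 and 514 RPKM in organoids (−0.35, SE 0.47, adjusted p = 0.717). Bst2 overlapped too, at 39.9 and 68.8 RPKM and at 47.8 and 66.4 RPKM (0.10, SE 0.39, adjusted p = 0.917). Psmb8, a subunit of the immunoproteasome, was at 26.7 and 45.9 RPKM at 12 h and at 0.528 and 3.25 RPKM in organoids, 19.2-fold lower (−3.82, SE 0.57, adjusted p = 0.0367). Gbp3, a guanylate-binding protein, was at 4.34 and 3.26 RPKM and at 0.0221 and 0.121 RPKM (−2.16, SE 0.37, adjusted p = 0.0436). Outside the list, Cd74, the invariant chain of class II molecules, fell from 136 and 100.4 RPKM to 1.90 and 3.44 RPKM, 44.4-fold (−5.04, SE 0.38, adjusted p = 0.0177). H2-Q6, a class I gene of the Qa group, fell from 66.9 and 60.2 RPKM to 0.659 and 0.285 RPKM, 135-fold (−5.46, SE 0.34, adjusted p = 0.0177), with the reservation that Q genes share sequence and their reads may be split between copies. The classical class I genes H2-K1, at 683 and 542 RPKM and at 207 and 159 RPKM (−1.74, SE 0.35, adjusted p = 0.0627), and H2-D1, at 473 and 443 RPKM and at 160.1 and 201 RPKM (−1.35, SE 0.32, adjusted p = 0.088), missed the threshold without overlap. Cd74 and H2-Q6 were highest in fresh cells, at 257 and 254 RPKM and at 150.4 and 172 RPKM, so that the 12 h level of each was already lower. Cxcl5, a chemokine that attracts neutrophils, went up instead, as the only call among 33 NF-kB and inflammatory genes, from 290.4 and 98.0 RPKM to 1586 and 2213 RPKM, 9.78-fold (3.46, SE 0.56, adjusted p = 0.0395).

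Single members of other stress lists fell. Nqo1, a quinone reductase and the only call among 26 NRF2 targets, was at 23.8 and 41.9 RPKM at 12 h and at 0.0465 and 2.36 RPKM in organoids, 27.3-fold lower (−4.12, SE 0.66, adjusted p = 0.0391), and was low in fresh cells as well, at 1.82 and 3.10 RPKM. Trib3, a pseudokinase induced by ATF4 and the only call among 31 genes of the unfolded protein and integrated stress responses, was at 73.4 and 48.1 RPKM and at 8.03 and 3.49 RPKM, 10.5-fold lower (−3.25, SE 0.45, adjusted p = 0.0302). Hspa5, the abundant chaperone of the endoplasmic reticulum, was at 339 and 247 RPKM and at 240.4 and 227 RPKM (−0.31, SE 0.33, adjusted p = 0.64). G0s2, an inhibitor of triglyceride lipase, was at 15.6 and 24.4 RPKM at 12 h and listed at 0 in both organoid libraries, at least 198-fold lower (−4.36, SE 0.45, adjusted p = 0.0186). Of 34 p53 and apoptosis genes 0 passed, with 8 higher and 2 lower at an unadjusted p under 0.05, against 9.80% and 9.34% of all genes tested. Phlda3, a p53 target that restrains AKT, overlapped, at 109 and 126 RPKM and at 121 and 262 RPKM.

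**Figure D4:**
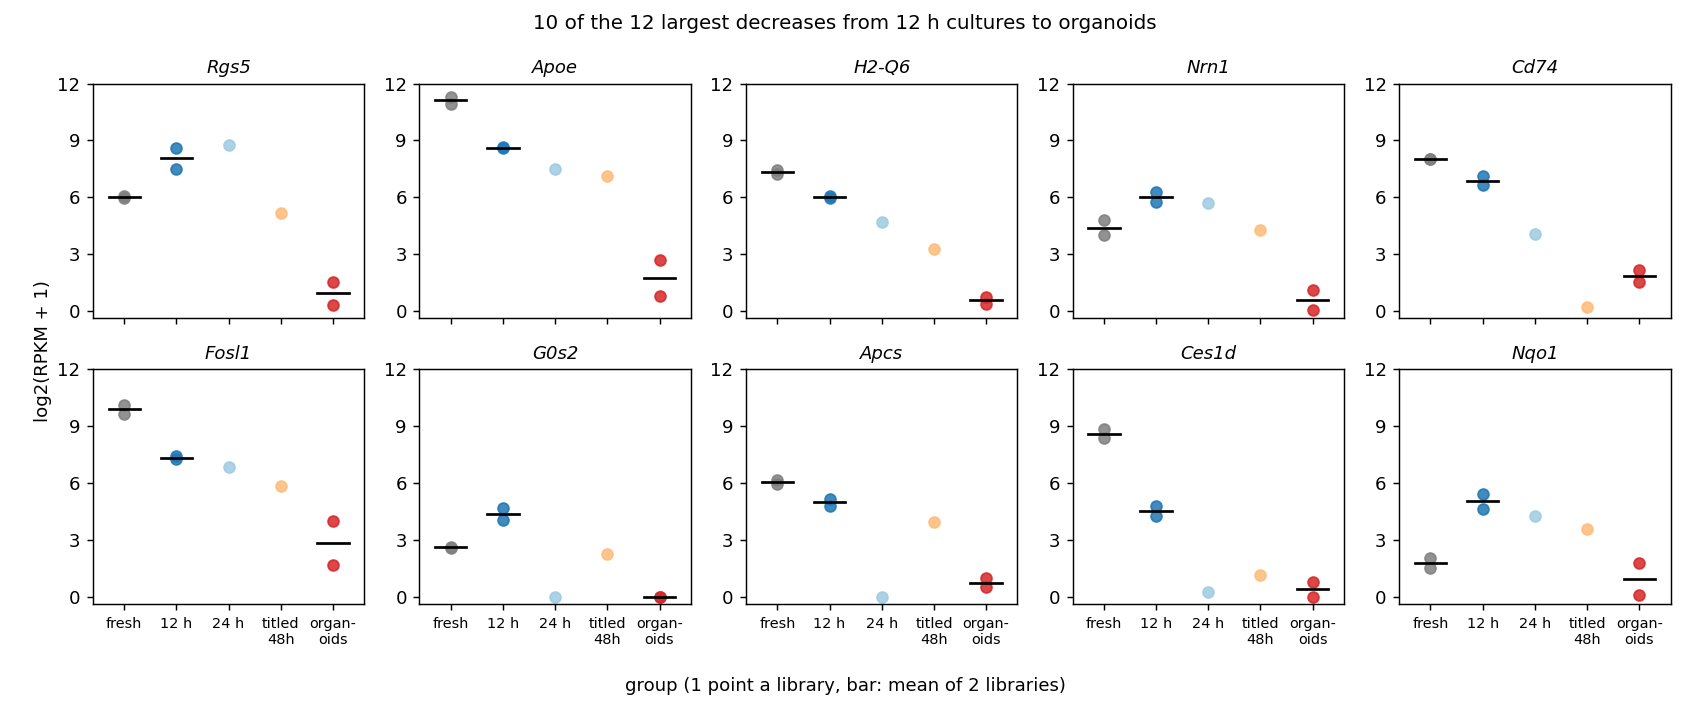
Each panel gives log2(RPKM + 1) (y axis) of 1 of 10 genes from the 12 largest fitted decreases in the 5 groups (x axis), 1 point a library and a bar at the mean of 2 libraries. Organoid points lie below both 12 h points in all 10 panels, and fresh cells lie above 12 h for Apoe, H2-Q6, Cd74, Fosl1, Apcs and Ces1d but below it for Rgs5, Nrn1, G0s2 and Nqo1.

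Genes that write, read or remove DNA methylation gave 0 calls among 21 tested of 24, with 2 higher and 2 lower at an unadjusted p under 0.05. Dnmt1, the maintenance methyltransferase, was at 7.53 and 6.06 RPKM at 12 h and at 6.90 and 20.0 RPKM in organoids (0.73, SE 0.56, adjusted p = 0.512). Dnmt3a was at 11.4 and 11.7 RPKM and at 7.75 and 8.49 RPKM, and Dnmt3b at 0.196 and 5.82 RPKM and at 0.184 and 1.01 RPKM. Tet2, a dioxygenase that oxidizes methylcytosine, was at 0.181 and 0.0245 RPKM and at 1.38 and 0.730 RPKM (0.88, SE 0.34, adjusted p = 0.233), and Tet3 at 5.90 and 2.89 RPKM and at 0.771 and 1.53 RPKM (−1.29, SE 0.51, adjusted p = 0.236). Tet2 was thus higher and Tet3 lower in both organoid libraries without passing the test, and Tet1 did not pass the filter on low values. Of 32 Polycomb and chromatin modifiers 0 passed, with 1 higher and 4 lower at an unadjusted p under 0.05. At that threshold 9.80% of all genes tested were higher and 9.34% lower.

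Matrix, cytoskeleton and junction lists had medians between −0.13 and 0.16, whose sign depended on scaling for matrix and actin genes. Against the mean of the 12 h libraries, the medians in organoid library 1 were −0.34, −0.49 and −0.32, in the same order. In organoid library 2 they were 0.50, 0.38 and 0.31, so that the organoid libraries lay on opposite sides. In the matrix list 8 members had a fitted change over 1 and 9 under −1. Of 37 matrix, basement membrane and integrin genes tested, 2 rose, Mmp7 and Timp3. Timp3, an inhibitor of metalloproteinases, was at 2.90 and 0.0339 RPKM at 12 h and at 29.96 and 23.1 RPKM in organoids, 18.1-fold higher (3.77, SE 0.65, adjusted p = 0.0449), a level close to that of fresh cells, 23.1 and 25.5 RPKM. Of 32 actin and SRF-type genes and 30 junction and keratin genes 0 passed, with 3 and 4 higher and 0 and 3 lower at an unadjusted p under 0.05. Actb, beta-actin, was at 727 and 700.2 RPKM and at 705 and 1334 RPKM, which overlapped.

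**Figure D5:**
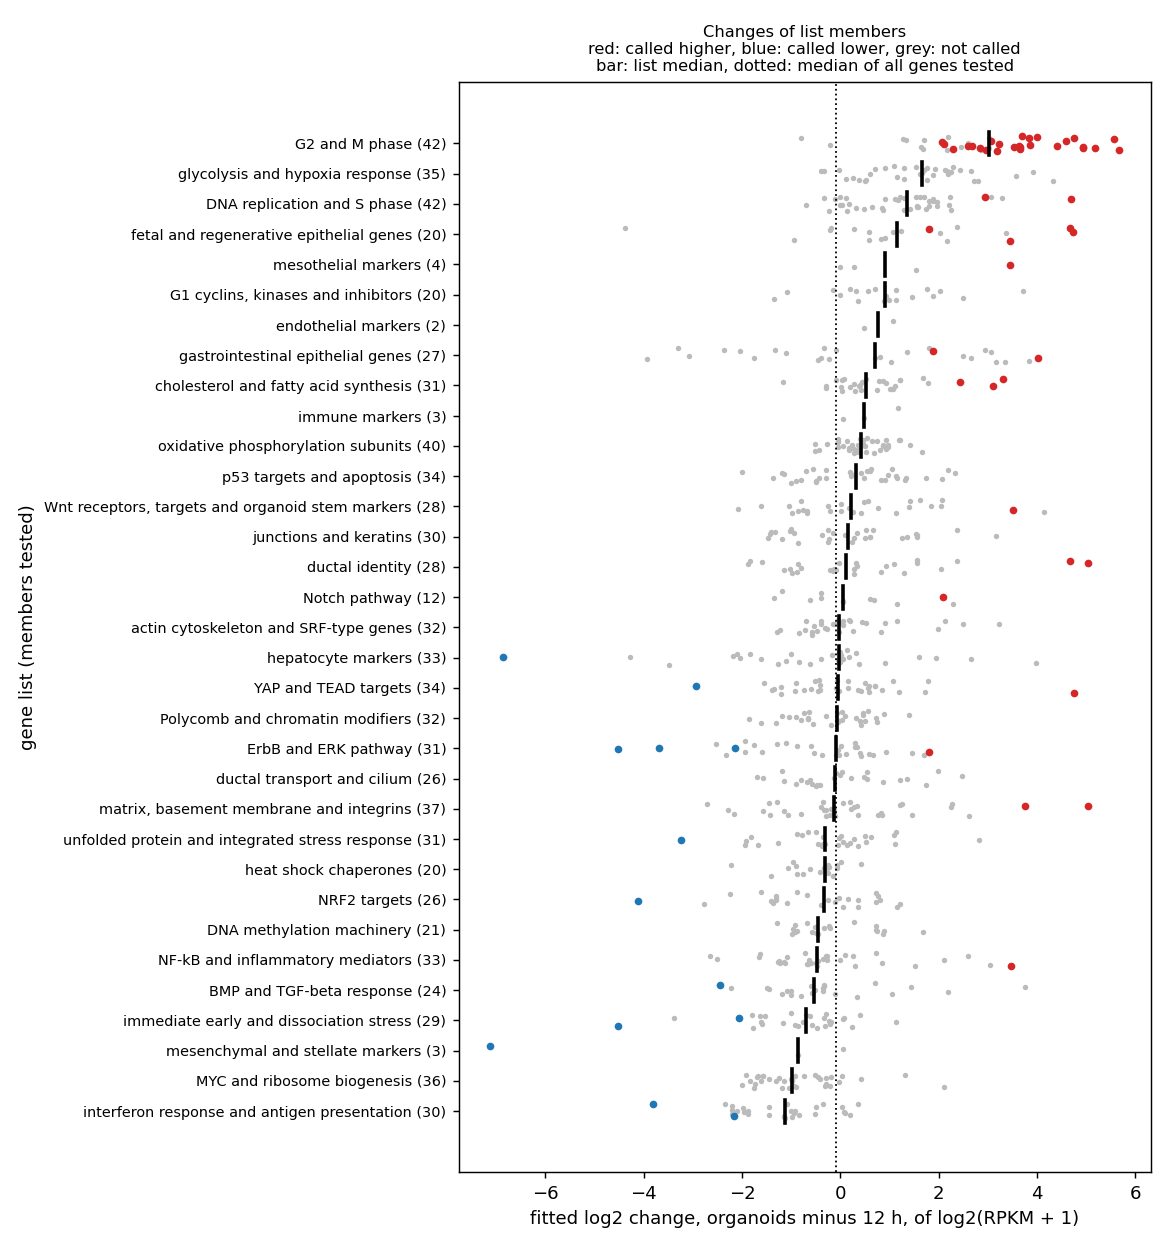
Fitted log2 change from 12 h to organoids (x axis) of each member tested of 33 gene lists (rows, number tested in brackets, ordered by median), with called members in red or blue, the list median as a black bar and the median of all genes, −0.09, as a dotted line. The G2 and M phase row has 26 red points and a median of 3.03, the interferon and antigen presentation row has the lowest median, −1.14, and most other rows straddle the dotted line.

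Endothelial and immune markers were scarce in both groups. Summed over 15 endothelial markers the level was 1.14 and 1.74 RPKM at 12 h and 3.63 and 3.32 RPKM in organoids, and over 19 immune markers 8.34 and 17.7 RPKM and 26.5 and 11.9 RPKM, with 17 and 16 and then 14 and 14 of the 19 at 0. Of the immune markers tested, Cd68, a macrophage lysosomal protein, was at 8.24 and 9.30 RPKM and at 22.1 and 7.004 RPKM, which overlapped. Csf1r, the receptor for macrophage colony-stimulating factor, was at 0.0977 and 0.443 RPKM at 12 h and at 1.92 and 1.79 RPKM in organoids, 6.88-fold higher by the means (1.18, SE 0.46, unadjusted p = 0.0398, adjusted p = 0.237 in limma). Lyz2, a lysozyme, the third marker tested, overlapped (0.05, SE 0.96, adjusted p = 0.991). The 10 mesothelial markers summed to 45.3 and 51.6 RPKM at 12 h and to 500.5 and 499.5 RPKM in organoids, nearly all of it Msln, with 6 and 7 and then 6 and 5 of the 10 at 0. The mesenchymal and stellate sum, 180.8 and 388.9 RPKM at 12 h and 0.453 and 2.16 RPKM in organoids, was nearly all Rgs5 at 12 h, while in organoids Rgs5 made up 0.254 and 1.88 RPKM of it.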

How the data were processed

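RNA was measured in 8 libraries, of which the 2 of organoids and the 2 of 12 h cultures were compared. The authors deposited 1 table of RPKM values for 47729 Ensembl genes, with 1 column per library. Per the submitters' processing notes the build was GRCm38 and edgeR was used, with the aligner, counter, strand setting and annotation not given in the sources used here. GENCODE M21 named 47224 of the genes. Small values came out as whole multiples of the value of 1 read, to within 0.01, in 87.9% to 91.0% of cases depending on the library, and this gave the effective reads.

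Values were taken as log2(RPKM + 1), a scale that understates changes of low genes, without further scaling. Genes that reached 1 RPKM in 2 or more libraries were fitted with limma 3.58.1 (lmFit, eBayes with trend) in R 4.3.3, with 1 coefficient for each of 5 groups over all 8 libraries, no covariate, 3 residual degrees of freedom and a prior of 3.65. Two-sided p-values were adjusted with the Benjamini-Hochberg procedure and called under 0.05. The script was tested on simulated data. A fold is the ratio of group means of RPKM, and against a group at 0 it is a bound from 3 reads over both libraries. Library weights, other scalings, filters and pseudocounts, a replicate block and leaving out in turn each library of the 3 groups with 2 were tried as alternatives.

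The comparison and the 33 lists, 993 entries from textbook knowledge of which 876 were tested, were chosen with earlier results of these data known. Named genes are the 12 largest increases and 12 largest decreases among called genes that averaged 5 RPKM or more in the 4 libraries without overlap, leaving out predicted genes, pseudogenes, ribosomal protein, small RNA and mitochondrial genes. To these were added up to 6 called members and 3 abundant members not called of each list, and 14 genes whatever their result. Other genes were chosen after their values were seen. Results for some genes are not reported here.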

Additional observations from a re-analysis of the deposited data

How the results depend on the processing

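The main fit called 178 genes higher and 80 lower. A pseudocount of 0.1 gave 309 higher and 109 lower, a pseudocount of 5 gave 94 and 47, and testing only the 7319 genes that averaged 5 RPKM or more gave 91 and 60. Library weights in limma gave 20 and 8. With no filter beyond a value above 0 in 1 library, 0 and 0 were called among 26693 genes, with 3379 at an unadjusted p under 0.05, and with only the 4 libraries compared 0 and 0, with 1686. Leaving out in turn each of the 6 libraries of the fresh, 12 h and organoid groups gave 0 to 202 higher and 0 to 119 lower, and of these 6 fits the 1 without organoid library 2 made calls. The 24 h library and the library titled 48h were left out together, not singly, in the fit of the 3 groups with 2 libraries. The fits that called 0 genes had fewer libraries or more genes than the main fit, but other fits with fewer libraries made calls. Why those fits called 0 genes was not tested. Quantile normalization gave 198 and 110, those 3 groups alone 182 and 76, and no variance trend 161 and 66. Whether replicate numbers pair the libraries is not known. The differences between replicates 1 and 2 had a correlation of 0.0175 between the 12 h cultures and organoids. It was 0.195 between fresh cells and 12 h and 0.224 between fresh cells and organoids, and such values cannot settle the pairing. With the replicate number as a block 144 genes were higher and 64 lower. Under the block Cdx2, Ereg, Gbp3, Jag2, Klf6 and Tk1 missed the threshold (adjusted p from 0.0504 to 0.0753 in limma), so that the Notch list and the ErbB and ERK list had 0 genes higher, while Alb, Krt7 and Prom1 passed it (from 0.0324 to 0.0449). No result changed its sign while called. The depth of 13833143 reads in organoid library 1 and the 2 libraries per group limit what could be detected. A gene that missed the threshold is not shown to be equal.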

Other observations

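Further genes of chromosome segregation rose outside the lists, and were chosen after their values were seen. Cenph, a protein of the inner kinetochore, was listed at 0 in both 12 h libraries and was at 10.3 and 24.1 RPKM in organoids, at least 436-fold higher (fitted change 4.07, SE 0.52, adjusted p = 0.0277 in limma). Spc24, a subunit of the outer kinetochore, was at 4.71 and 2.29 RPKM and at 31.2 and 31.5 RPKM, 8.96-fold higher (2.90, SE 0.46, adjusted p = 0.0388). The replication-dependent linker histone Hist1h1b was listed at 0 in both 12 h libraries and was at 31.7 and 18.6 RPKM in organoids (4.66, SE 0.48, adjusted p = 0.0186).

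Among the genes that rose were Stra6, Aldh1a2 and Rbp2, each known for a part in retinoid handling and singled out after the results were seen. Rbp4, the retinol-binding protein of plasma, overlapped, at 87.9 and 98.9 RPKM at 12 h and at 118 and 15.1 RPKM in organoids (−1.11, SE 0.87, adjusted p = 0.522). Stra6, the receptor for retinol-binding protein, was at 0 and 0.00789 RPKM at 12 h and at 31.0 and 17.7 RPKM in organoids (4.61, SE 0.46, adjusted p = 0.0183). Aldh1a2, which makes retinoic acid, was listed at 0 in both 12 h libraries and was at 15.6 and 23.7 RPKM in organoids (4.34, SE 0.43, adjusted p = 0.0183), and fresh cells had 10.05 and 15.2 RPKM. Rbp2, an intracellular retinol-binding protein of the intestine, was listed at 0 at 12 h and was at 5.56 and 3.70 RPKM (2.47, SE 0.35, adjusted p = 0.0333). Wnt10a, a Wnt ligand, was at 0 and 0.0373 RPKM and at 12.9 and 39.3 RPKM (4.54, SE 0.62, adjusted p = 0.0299), and Wls, which escorts Wnt proteins to the cell surface, rose 7.28-fold, from 3.75 and 3.54 RPKM to 23.1 and 29.9 RPKM (2.56, SE 0.37, adjusted p = 0.0336).

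Some genes usually studied in immune cells moved, in both directions. Mcpt8, a mast cell and basophil protease, was listed at 0 in both 12 h libraries and was at 29.9 and 7.58 RPKM in organoids (4.03, SE 0.64, adjusted p = 0.0388), and Cd53, a leukocyte tetraspanin, was listed at 0 and was at 7.64 and 5.22 RPKM (2.87, SE 0.34, adjusted p = 0.0249). Trbc2, a T cell receptor constant segment, fell from 20.1 and 10.4 RPKM to 0 and 0.214 RPKM (−3.82, SE 0.55, adjusted p = 0.0333). Of the 19 immune markers 14 were at 0 in each organoid library, and their part in these values was not tested.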
